A study of Drosophila melanogaster with 4 samples.

Results

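Transcripts of cytosolic ribosomal proteins were examined in RNA that was precipitated together with LARK, an RNA-binding protein with RNA recognition motifs and a zinc finger that acts downstream of the circadian clock of Drosophila melanogaster. The tissue was the brain of pharate adults, the stage just before the fly leaves its pupal case, and all samples came from wild-type Canton-S flies without a transgene or treatment. Each of 2 experiments pooled about 1000 hand-dissected brains and gave 1 LARK immunoprecipitate (LARK IP) and 1 total RNA sample, which was taken from the same lysate before the precipitation, so that 4 arrays formed 2 groups of 2. Mild washing was used, the amounts of RNA labelled were equal in the study's methods (similar in the sample labels), and no array of a precipitation without antibody was analysed here. Members were the probe sets with 1 annotated gene symbol that starts with RpL, RpLP or RpS and a number, plus RpL24 and RpL34b, whose probe sets the annotation left unnamed and which were named from the study's own table of LARK targets. This gave 39 genes with 1 probe set each among 13966 probe sets that were not controls, 24 of the large subunit and 15 of the small one. The same symbol pattern matches 92 genes among the RefSeq names, so all counts and subunit medians below cover only a part of the family. RpL24 and RpL34b thus entered through a choice the study had made on these same arrays, and their enrichment is a description and no independent evidence.

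The cytosolic ribosome is built of a small subunit, which reads the messenger RNA, and a large subunit, which joins the amino acids. Genes named RpS encode proteins of the small subunit and genes named RpL those of the large one, among which RpLP0, RpLP1 and RpLP2 form the stalk that recruits elongation factors. Ribosomal protein genes are active in nearly every cell, their messenger RNAs are short and abundant, and the proteins are made in matched amounts. In flies, loss of a single copy of many of these genes slows development and thins the bristles (the Minute phenotype). A ratio of LARK IP over total RNA tells whether a transcript took a larger or smaller share of the precipitated RNA than of the lysate.

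A value is an Affymetrix signal of a probe set, scaled to the same target on each array, and a ratio is the difference of log2(signal + 0.8), so that 1 stands for a doubling. The 4 arrays were alike in overall signal, with 35.0% to 37.1% of probe sets above 4.49, the level that 95% of the signals from 23 unspiked control probe sets did not exceed. As a sign of RNA quality, the control gene eIF-4a gave 63.2 and 56.1 times as much signal from its 3' as from its 5' part in LARK IP, against 37.1 and 36.0 times in total RNA. For GAPDH the ratio was 18.6 and 242.5 in LARK IP, against 9.5 and 8.9 in total RNA, where the value of 242.5 rests on a 5' signal of 0.2, under background. Neither ratio overlapped between the groups, and their part in the results below was not tested. Of the brain markers, alrm and repo of glia and futsch and fne of neurons lay above 4.49 on all 4 arrays, and the summed signal of 5 neuronal markers was 81.0 and 145.3 in LARK IP against 25.3 and 77.2 in total RNA. Among them futsch, 1 of 4 tested, rose (1.44 ± 0.81, SD, n = 2; adjusted p = 0.047 in limma), where 2.69% of all tested probe sets rose. A fit without the replicate as a block called 0 probe sets. The summed signals of the list did not overlap between the groups. Of these sums futsch made up 45.3 and 95.9 in LARK IP and 10.6 and 52.3 in total RNA, so that its own signals did overlap. Both fne and elav were also higher in LARK IP in each experiment, though the total RNA signal of elav in experiment 1 was 1.5, under background. However, nSyb was lower in experiment 1 (5.7 against 6.9). In experiment 2 it was higher (10.8 against 1.4), with the total RNA signal under background. The fifth, brp, was higher in experiment 1 (3.7 against 1.2) and lower in experiment 2 (1.3 against 3.9). All 4 of its signals were under background. Summed signals of 4 glial markers were 249.1 and 167.2 in LARK IP against 291.6 and 130.5 in total RNA, and those of 2 photoreceptor markers 44.4 and 75.8 against 61.2 and 119.7. None of 3 fat body markers lay above 4.49 on all 4 arrays. However, the 1 muscle marker on the array (up) did, as did 1 of 4 haemocyte markers (Pxn). The lists therefore do not show that the lysates were free of other tissue. The part of these markers in the results was not tested.

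Ribosomal protein transcripts that were detected in the brain lysates were also detected in LARK IP, most of them at about the same share. Of the 39 genes, 32 exceeded 4.49 on all 4 arrays, and the same 32 were bright enough to be tested (mean log2 signal in the top 25% of probe sets). Their median log2 ratio was 0.09 in experiment 1 and 0.09 in experiment 2, against -0.05 and -0.01 over all 3492 tested probe sets. From the first to the third quartile the ribosomal protein ratios ran from -0.21 to 0.27 in experiment 1 and from -0.12 to 0.36 in experiment 2, and those of all tested probe sets from -0.46 to 0.39 and from -0.44 to 0.43. For 21 of the 32 genes (65.6%) the ratio lay within 0.5 of 0 in both experiments, as it did for 34.2% of all tested probe sets. Bright probe sets in general varied less. Among the 150 probe sets whose log2 signals averaged above the log2 of 100, of which 26 were ribosomal protein genes, 61.3% lay within 0.5 of 0 in both experiments, and among these 26 genes 69.2% did (the limit of 100 was chosen after the values were seen). The median log2 ratio of the 150 was 0.13 in experiment 1 and 0.18 in experiment 2. That of the 26 genes was lower, at 0.06 and 0.03, so the small excess over all tested probe sets was not seen at like brightness.

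Of the 32 genes, 2 rose in LARK IP and 0 fell (limma, adjusted p under 0.05 over all tested probe sets), while 2.69% of all tested probe sets rose and 0.172% fell. The 2 were RpL34b and RpL24. Among the 150 bright probe sets 18 rose (12.0%), and among the 26 bright ribosomal protein genes 1 did (RpL24). Of the 30 genes that the array annotation named, 0 passed limma's test in either direction, and at an unadjusted p under 0.05 there were 3 higher and 3 lower, against 7.82% and 4.18% of all tested probe sets. Both LARK IP signals exceeded both total RNA signals for 6 of the 32 genes (18.8%), against 15.4% of all tested probe sets, and both lay below them for 2 (6.25%), against 17.4%. Among the 150 bright probe sets these shares were 22.7% above and 6.0% below. Among the 26 bright ribosomal protein genes they were 15.4% and 7.69%.

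**Figure D1:**
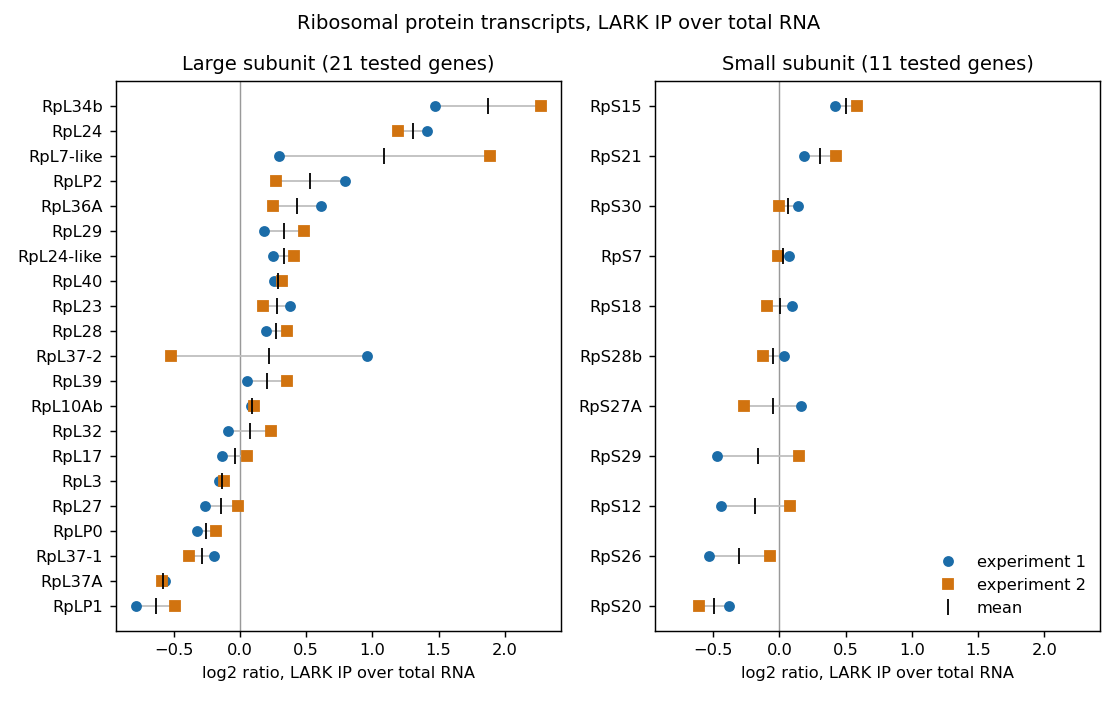
Log2 ratio of LARK IP over total RNA for the 32 tested ribosomal protein genes, ordered by the mean in each subunit. Circles are experiment 1, squares experiment 2 and bars their mean. RpL34b and RpL24 stand apart with ratios of 1.19 or more in both experiments, and all 11 small subunit genes have a mean between -0.49 and 0.51.

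RpL34b (CG9354) encodes a large subunit protein and is 1 of a pair of RpL34 genes, of which the other is not among the members. Its signals were 44.9 and 151.3 in LARK IP, against 15.7 and 30.7 in total RNA. Both LARK IP signals lay above both total RNA signals. The log2 ratios of 1.47 and 2.27 averaged 1.87 ± 0.57 (SD, n = 2 experiments; adjusted p = 0.0103 in limma), which is 3.66-fold, and 98.4% of tested probe sets had the same or a lower mean ratio.

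RpL24 (CG9282) encodes a protein on the face of the large subunit that meets the small one. Its signals were 198.6 and 596.6 in LARK IP, against 73.9 and 260.8 in total RNA. The groups overlapped, since total RNA of experiment 2 was brighter than LARK IP of experiment 1, but within each experiment LARK IP was the higher one. The log2 ratios of 1.42 and 1.19 averaged 1.30 ± 0.16 (SD, n = 2; adjusted p = 0.0153 in limma), or 2.47-fold. Both calls ended when the replicate was left out of the fit as a block (adjusted p = 0.953 for RpL24 and 0.834 for RpL34b), under quantile normalization (0.0989 and 0.0619, with log2 ratios of 1.11 and 1.65) and without the variance trend (0.347 and 0.258). Leaving out the block or the trend does not alter the ratios themselves, and fits with 1 array left out, which also lack the block, gave adjusted p-values of 0.565 or more.

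**Figure D2:**
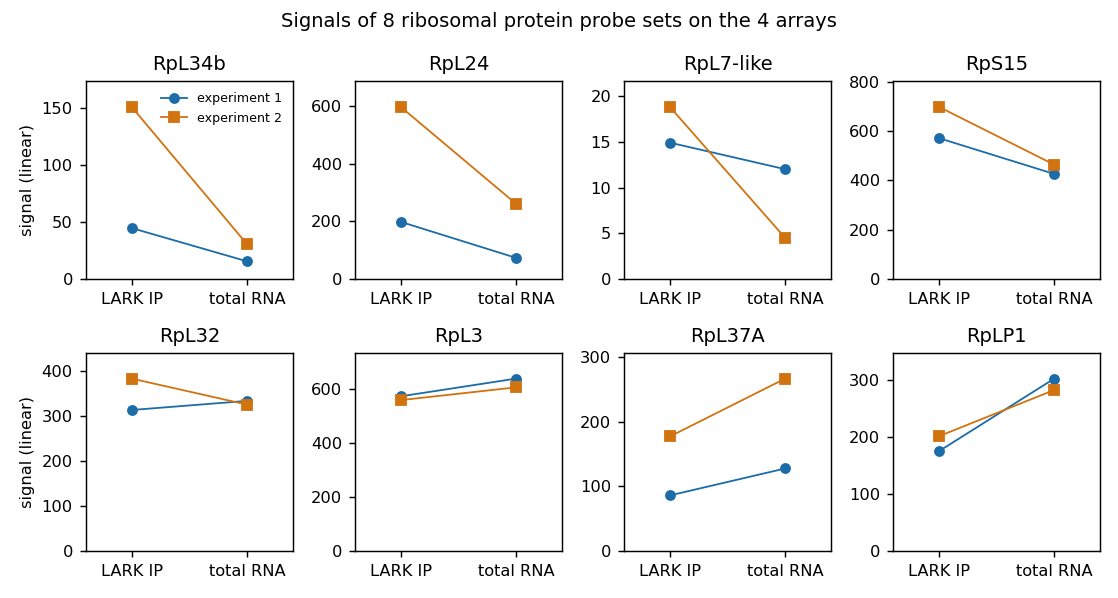
Signals of 8 ribosomal protein probe sets in LARK IP (left) and total RNA (right), joined within an experiment, on linear axes that start at 0 and differ between panels. RpL34b and RpL24 were higher in LARK IP in both experiments, RpL32 and RpL3 were nearly level, and RpL37A and RpLP1 were lower in LARK IP in both without passing the test.

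Among the 19 other large subunit genes tested, none passed in limma, where 2.69% of all tested probe sets rose and 0.172% fell. Of the 19, 10 had positive and 6 negative ratios in both experiments. The same counts were 945 and 1072 over all 3492 tested probe sets, and 77 and 27 among the 150 bright ones. The third highest mean was that of RpL7-like (CG5317), whose yeast counterpart works in ribosome assembly. It read 14.9 and 18.8 in LARK IP, against 12.0 and 4.5 in total RNA, and its log2 ratios of 0.29 and 1.89 differed so much that the mean of 1.09 ± 1.13 (SD, n = 2) did not pass (adjusted p = 0.375). The total RNA signal of 4.5 was at the background level. RpL36A (CG7424) had 719.7 and 746.8 in LARK IP and 470.3 and 629.4 in total RNA, a mean log2 ratio of 0.43 ± 0.26 (adjusted p = 0.493), and its groups did not overlap. RpL29 (CG10071) had log2 ratios of 0.18 and 0.48. At the other end, RpL37A (CG5827) read 85.9 and 177.2 in LARK IP, against 127.7 and 266.9 in total RNA. Its log2 ratio was -0.57 in experiment 1 and -0.59 in experiment 2, a mean of -0.58 ± 0.01 that did not pass (adjusted p = 0.259). RpL37-1 (CG9091) was at -0.20 and -0.38, and RpL27 (CG4759) at -0.27 and -0.01.

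RpL32 (CG7939), known as rp49 and widely used as a reference gene for RNA amounts in flies, read 314.0 and 384.0 in LARK IP, against 334.3 and 326.0 in total RNA. Its log2 ratios of -0.09 and 0.24 fell on either side of 0, with a mean of 0.07 ± 0.23. RpL3 (CG4863), a core protein near the site of peptide bond formation, was nearly level over all 4 arrays, with 574.1 and 560.0 in LARK IP against 640.0 and 607.5 in total RNA. These groups did not overlap, though the mean log2 ratio was only -0.14 ± 0.03 (adjusted p = 0.872). RpL10Ab (CG7283) was as level in the other direction, with 669.3 and 646.3 in LARK IP against 633.1 and 600.5 in total RNA.

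The 3 stalk genes went different ways. RpLP1 (CG4087) had the lowest mean ratio of all 32 genes: it read 175.1 and 201.4 in LARK IP, against 302.7 and 282.7 in total RNA, without overlap. Its log2 ratio was -0.64 ± 0.21 (SD, n = 2) and did not pass (adjusted p = 0.215). RpLP0 (CG7490), the base of the stalk, read 172.2 and 95.0 in LARK IP against 216.1 and 108.0 in total RNA, with log2 ratios of -0.33 and -0.18. RpLP2 (CG4918), the partner of RpLP1, read 102.6 and 310.4 in LARK IP against 59.0 and 256.9 in total RNA. Its log2 ratios were 0.79 and 0.27, a mean of 0.53 ± 0.37 (adjusted p = 0.373), so that the partners P1 and P2 had means on opposite sides of 0, neither of which passed. Whether they differed was not tested.

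None of the 11 small subunit genes tested was called by limma in either direction, although without adjustment 1 higher and 1 lower gene had a p under 0.05, where 7.82% and 4.18% of all tested probe sets did. RpS15 (CG8332) was the highest, with 571.3 and 697.7 in LARK IP against 426.0 and 463.6 in total RNA, without overlap. Its log2 ratio of 0.51 ± 0.12 (SD, n = 2) had an adjusted p of 0.373 in limma. RpS20 (CG15693) was the lowest, with 214.3 and 280.2 in LARK IP against 278.7 and 427.4 in total RNA, and averaged a log2 ratio of -0.49 ± 0.16 (adjusted p = 0.375). These were, with RpS21 (CG2986, 0.19 and 0.43) and RpS26 (CG10305, -0.54 and -0.07), the only 4 small subunit genes whose ratios had 1 sign in both experiments. The other 7 changed sign between the experiments. They included RpS18 (CG8900), with 582.3 and 906.2 in LARK IP against 543.9 and 967.3 in total RNA, RpS7 (CG1883), with 244.0 and 236.3 against 232.1 and 238.5, and RpS30 (CG15697), with 964.9 and 773.6 against 876.6 and 776.3. RpS28b (CG2998) had log2 ratios of 0.03 and -0.13, and RpS12 (CG11271) and RpS29 (CG8495) were at -0.44 and 0.08 and at -0.47 and 0.14.

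A pair of members encode a ribosomal protein fused to ubiquitin, the tag for protein breakdown, and are sources of ubiquitin as well as of ribosomes. RpL40 (CG2960) read 534.4 and 739.7 in LARK IP, against 446.9 and 592.1 in total RNA, with log2 ratios of 0.26 and 0.32. RpS27A (CG5271) read 358.3 and 616.8 in LARK IP, against 320.0 and 741.3 in total RNA, with 0.16 and -0.26. Neither passed (adjusted p = 0.653 and 0.971 in limma).

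The subunits were compared through the median log2 ratio of their tested genes in each experiment. In experiment 1 the median was 0.18 for the 21 large subunit genes and 0.07 for the 11 small subunit genes, and in experiment 2 it was 0.24 and -0.01. The large subunit was therefore higher by 0.11 and 0.25, a mean of 0.18 ± 0.10 (SD, n = 2). Without RpL24 and RpL34b the difference was 0.01 in experiment 1 and 0.19 in experiment 2, a mean of 0.10 ± 0.13. Leaving out RpL7-like and RpL24-like instead gave the same values, 0.01 and 0.19. With 2 experiments an exact sign-flip test cannot go below p = 0.5, so no test was made, and genes of 1 array are not replicates. The distributions overlapped, with means of -0.64 to 1.87 in the large and -0.49 to 0.51 in the small subunit.

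**Figure D3:**
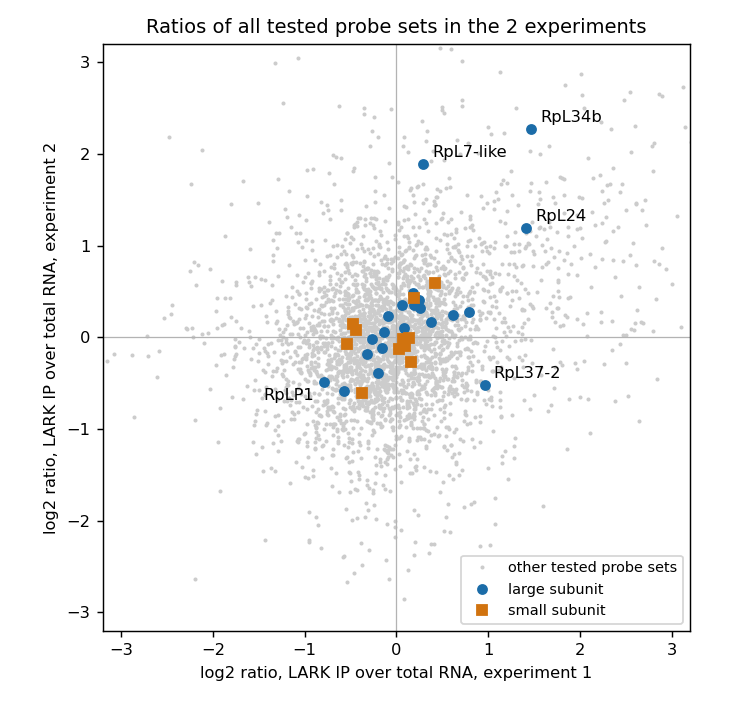
Log2 ratio of LARK IP over total RNA in experiment 1 (x axis) and experiment 2 (y axis) for all tested probe sets (grey; 20 lie outside the axes), large subunit genes (circles) and small subunit genes (squares). Most ribosomal protein genes lie near the centre, with RpL34b and RpL24 at the upper right and RpL7-like high in experiment 2 only.

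Ribosomal protein signals also differed between the 2 experiments, and mostly in the same direction in LARK IP and total RNA, as did those of bright probe sets in general. The 2 experiments used separate lysates, so that lysate and any difference in array processing between the experiments cannot be told apart. Nor, in bulk RNA, can fewer cells of a type be told from less RNA per cell. Signals were higher in experiment 2 for 25 of the 32 genes in LARK IP (78.1%) and for 24 in total RNA (75%), against 50.6% and 50.3% of all tested probe sets. The median difference, experiment 2 minus experiment 1, was 0.43 in LARK IP and 0.41 in total RNA on the log2 scale, against 0.02 and 0.01 over all tested probe sets. Among the 150 bright probe sets, which include 26 of these genes, the medians were 0.40 and 0.29. Of these 150, 70.7% were higher in experiment 2 in LARK IP and 64.0% in total RNA. In 27 of the 32 genes (84.4%) the difference had the same direction in LARK IP and total RNA, 22 of them upward, against 62.5% of all tested and 82.7% of the bright probe sets. Across the 32 genes Pearson's r between the differences of LARK IP and of total RNA was 0.73 (Spearman's rho 0.76), across all tested probe sets 0.36 and 0.37, and across the bright ones 0.82 and 0.81. These are descriptions across genes, which share 4 arrays and are not independent. For 22 of the 32 (68.8%) the mean difference between experiments was larger than the mean difference between LARK IP and total RNA, as it was for 55.7% of all tested and 64.0% of the bright probe sets.

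Averaged over LARK IP and total RNA, RpLP2 and RpL24 differed most between the experiments. RpLP2 was higher in experiment 2 by 1.59 in LARK IP and 2.11 in total RNA, and RpL24 by 1.58 and 1.81. Within LARK IP alone RpL34b differed most, by 1.73, against 0.93 in total RNA. RpL29 was higher by 1.47 and 1.17, while RpLP0 was lower in experiment 2, by -0.85 in LARK IP and -0.995 in total RNA. RpL37A gives the plainest example of the pairing, since its signal about doubled in both groups (1.04 and 1.06) while its ratio of LARK IP over total RNA stayed at -0.57 and -0.59. Only a comparison within each lysate separates the groups for such genes.

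**Figure D4:**
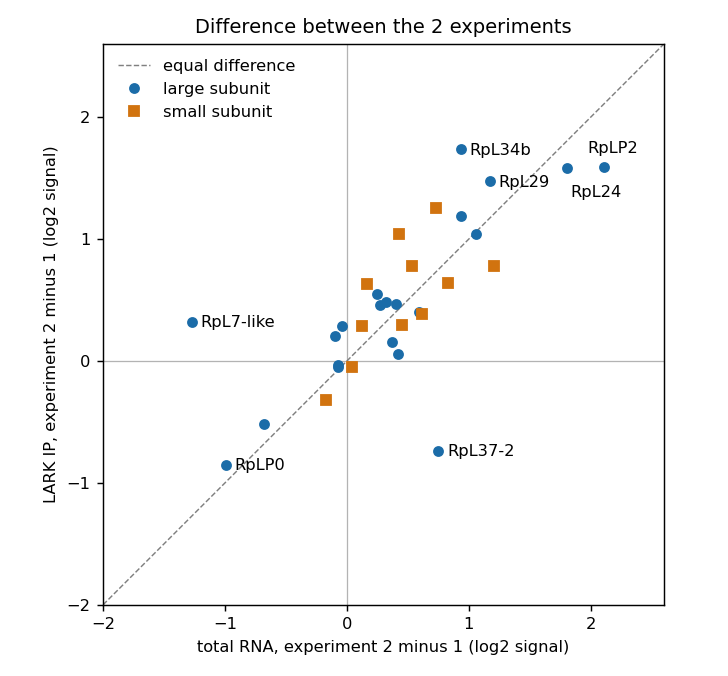
Difference of log2 signal between experiment 2 and experiment 1 in LARK IP (y axis) against total RNA (x axis) for the 32 tested genes, large subunit as circles and small subunit as squares. Points near the dashed line changed equally in both groups, as RpL24 and RpLP0 nearly did, while RpL7-like and RpL37-2 moved in opposite directions.

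Several members are second copies or relatives of a ribosomal protein gene. For 5 pairs both genes were on the array, and since probe sets differ in response, the levels within a pair are not compared. RpS28b read 658.6 and 806.5 in LARK IP and 643.9 and 881.3 in total RNA, whereas RpS28a (CG15527) read 1.9 and 0.3 in LARK IP and 0.5 and 0.5 in total RNA. RpL10Aa (CG3843) stayed at or below 2.0 on all arrays, under background. RpL37-2 (CG9873) read 10.7 and 6.1 in LARK IP and 5.1 and 9.1 in total RNA, and its log2 ratios of 0.96 and -0.52 had opposite signs. RpL24-like (CG6764) has a yeast counterpart that is an assembly factor and holds the place of RpL24 in precursors of the large subunit. It read 52.4 and 36.3 in LARK IP, against 43.9 and 27.1 in total RNA, with log2 ratios of 0.25 and 0.41 (mean 0.33 ± 0.11, adjusted p = 0.655). This ratio did not pass, unlike that of RpL24, and whether they differed was not tested.

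The 7 members that were too dim to be tested included RpL10Aa, RpL22-like, RpLP0-like, RpS10a, RpS19b and RpS28a. Of the 7, 5 stayed under 4.49 on all 4 arrays. RpLP0-like (CG1381), a relative of the stalk base whose yeast counterpart acts in ribosome assembly, read 3.3 and 6.2 in LARK IP and 0.8 and 1.2 in total RNA. It was above background on only 1 of the 2 LARK IP arrays and on no total RNA array, so no fold is given. RpL22-like (CG9871), a copy known from the testis, read 0.6 and 0.3 in LARK IP and 2.5 and 4.4 in total RNA, all under background.

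Other parts of the translation machinery, taken from lists by symbol or by role, had 0 genes called by limma. Over all 3492 tested probe sets 2.69% rose and 0.172% fell, so a count of 0 in lists of this size is no result about them. Ratios were positive in both experiments for 945 of the 3492 and negative in both for 1072. Of 30 tested mitochondrial ribosomal protein genes, which serve the separate ribosome of mitochondria, 10 had positive and 4 negative ratios in both experiments. Their median log2 ratio was 0.04 in experiment 1 and 0.42 in experiment 2, and 30.0% lay within 0.5 of 0 in both experiments. Their median difference, experiment 2 minus 1, was close to 0 in LARK IP and -0.27 in total RNA, against 0.02 and 0.01 over all tested probe sets. The mitochondrial genes were dimmer than most cytosolic ones, and the medians of the 150 bright probe sets were 0.40 and 0.29. Gene class and brightness cannot be told apart here, and the contrast with the cytosolic genes was not tested. The highest of the 30 was mRpL46 (CG13922) at 0.91 ± 1.40 and the lowest mRpS31 (CG5904) at -0.71 ± 0.59. The mean of mRpL46 comes from log2 ratios of -0.08 and 1.91, the second with a total RNA signal of 1.6, under background. Of 29 initiation, elongation and release factors 6 were positive and 11 negative in both experiments, with a median of -0.26 in experiment 1 and 0.03 in experiment 2. They ran from eIF3h (CG9124), a subunit of the factor that prepares the small subunit, at -0.98 ± 1.10, to eIF4G2 (CG10192), a scaffold of initiation factors, at 0.98 ± 0.92, and 48.3% lay within 0.5 of 0 in both. The value of eIF3h is that of its brighter probe set, while a second one had log2 ratios of 0.02 and -0.05.

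Of 6 tested genes of ribosome assembly the lowest was Non1 (CG8801), a nucleolar GTPase, at -0.72 ± 0.05 (adjusted p = 0.259) and the highest Nop56 (CG13849), of the particles that modify ribosomal RNA, at 0.71 ± 1.20. The total RNA signal of Nop56 in experiment 2 was 4.2, under background. A second, dimmer probe set of Non1 had log2 ratios of -0.48 and 0.88, so its probe sets disagreed. Of 4 genes of growth control S6k (CG10539), the kinase that phosphorylates ribosomal protein S6, was the highest. It read 15.4 and 18.3 in LARK IP, against 4.0 and 7.8 in total RNA. The log2 ratio of 1.45 ± 0.43 (SD, n = 2) did not pass (adjusted p = 0.128), and 1 of its total RNA signals lay under background. The lowest of the 4 was Pdk1 (CG1210) at 0.06 ± 0.05. Rack1 (CG7111), a scaffold protein on the small subunit that the symbol rule did not take in, read 350.0 and 395.4 in LARK IP against 423.0 and 370.7 in total RNA. Nacalpha (CG8759), which binds new chains as they leave the ribosome, was at 0.43 ± 0.09 (adjusted p = 0.531), and its partner bic (CG3644) at 0.04 ± 0.44.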

How the data were processed

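The authors processed the arrays (Affymetrix DrosGenome1) with MAS5 (Microarray Suite 5.0, default parameters) and deposited signal intensities scaled to 1 target on each array. The deposited intensity is relative to the array's total signal, so it shows shares and not amounts of RNA. Detection calls were not used here. Of 13966 probe sets that were not controls, the platform annotation gave 1 symbol for 12442, several for 327 and none for 1197. Of the probe sets with several symbols 2 name a ribosomal protein gene and were left out. Symbols were matched to RefSeq Release 6 names and 0 changed. Since the files name no genome build, no coordinates are given.

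Ratios were taken on log2(signal + 0.8), which understates changes of low signals; 0.8 is the 25th percentile of an array's signals (median of 4). The 3492 probe sets in the top 25% by mean log2 signal were fitted with limma (version 3.58.1, R version 4.3.3; lmFit, eBayes with trend, Benjamini-Hochberg at 0.05, two-sided), with the replicate number as a block, since LARK IP and total RNA of 1 number came from 1 lysate by the series description. Experiment 2 minus 1 correlated between the groups with Pearson's r of 0.36. The fit was checked on simulated data. With 2 arrays per group the spread is largely borrowed (prior degrees of freedom 7.84, residual 1), and an exact permutation test cannot go below p = 0.33. The members and lists were chosen with earlier results of these data known. The genes named with values are those called, the 5 highest and 5 lowest of each subunit, the stalk, ubiquitin fusion, RpL32 and paralogous genes, and genes called, highest or lowest in the other lists; RpL3, RpL29 and bic were added after their values were seen. RpS6 and RpS3, also listed by role, had no probe set among the members and were not analysed here. The values of 1 dim member are not reported here.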

Additional observations from a re-analysis of the deposited data

Results flagged for a closer look

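Signal outside the tested probe sets was seen in the array's control probe sets for 18S ribosomal RNA, the RNA of the small subunit, which carries no poly(A) tail. The probe set for the 3' part read 419.7 and 1372.9 in LARK IP, against 250.7 and 627.0 in total RNA, a mean log2 ratio of 0.94 ± 0.27 (SD, n = 2), higher in both experiments. That for the middle part read 502.7 and 1265.4 in LARK IP, against 393.8 and 1006.5 in total RNA, 0.34 ± 0.02. The probe set for the 5' part was not higher in LARK IP, with 65.1 and 352.5 against 70.0 and 436.6 in total RNA. All 3 were brighter in experiment 2 in both groups, by 1.33 to 2.42 in LARK IP and by 1.32 to 2.63 in total RNA on the log2 scale, the same direction as the median ribosomal protein transcript. They were not part of the test, and the cause was not tested.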

How the results depend on the processing

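With 2 arrays per group, calls depended on the fit. The main setting called 2 of 32 genes higher. Fitted with no replicate block it was 0 (1 gene at an unadjusted p under 0.05), with quantile normalization 0, without the variance trend 0, and without RpL24 and RpL34b, by construction, 0. No setting called a gene lower. Leaving out each array in turn, in fits that also lacked the block, gave 0 to 0 genes higher, as leaving out the block alone did. The calls of RpL24 and RpL34b held with a smaller pseudocount, a larger one, no filter, the top 15% filter and a restriction to total RNA above background that was added after the data were seen. RpL24's log2 ratio ran from 0.40 (without total RNA of experiment 1) to 2.21 (without that of experiment 2), and RpL34b's from 1.003 (without LARK IP of experiment 2) to 2.74 (without that of experiment 1), with the experiment's own difference included. The cause was not tested.

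The median log2 ratio of the genes, 0.07 in the main setting, was 0.0728 with no filter, 0.0667 with the top 15% filter, 0.048 without RpL24 and RpL34b and 0.048 without genes named -like, but -0.11 with quantile normalization, where the median of all tested probe sets was -0.05. With 1 array left out it ran from -0.0766 (without LARK IP of experiment 2) to 0.33 (without that of experiment 1). The difference of large minus small subunit, 0.18, ran from 0.0346 (without LARK IP of experiment 1) to 0.46 (without total RNA of experiment 1). It was 0.35 without LARK IP of experiment 2, and above 0 under every alternative run. This constant sign is no independent evidence, since all runs reuse the same arrays. Most runs also keep RpL24 and RpL34b, large subunit genes that entered as targets chosen on these arrays. Without RpL24 and RpL34b the difference was 0.01 in experiment 1 and 0.19 in experiment 2. No run left out both these genes and those named -like.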
